A study of Mus musculus with 6 samples.

Results

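In small intestinal adenomas, 10 genes that mark mast cells and type 2 immunity were followed across 6 RNA-seq libraries. They were chosen by gene name from the 48440 genes of the deposited tables. The proteases Mcpt1, Mcpt2, Mcpt4, Cma1, Cpa3 and Tpsb2 and the IgE receptor chain Fcer1a stand for mast cells, and Il13, Il1rl1 and Gata3 for type 2 immunity. Of the 10 genes, 8 had a mean level of at least 1 FPKM (fragments counted per kilobase of a transcript, relative to all fragments of the library) and entered the test, while Il13 and Gata3 lay below it.

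The study asked what cells of the Paneth cell (PC) lineage do in adenomas of the ApcMin mouse, which forms many small intestinal adenomas because 1 copy of the tumor suppressor Apc is mutant. Adenomas of ApcMin, PCdel mice (Defa4-Cre, Rosa26 iDTA/WT) were compared with those of ApcMin, WT littermates (Rosa26 iDTA/WT without Cre), so both groups carried the Min allele and the silent diphtheria toxin cassette. In PCdel mice the Cre, knocked into the Defa4 locus in 129/svJ embryonic stem cells, switches the toxin on in PC-lineage cells. Mice were on a C57BL/6 background, older than 42 days and of both sexes. The ApcMin, WT libraries are named QC4, QC5 and QC6 and the ApcMin, PCdel libraries QC3, QC8 and QC10. The labels do not say whether libraries of a group came from separate mice, so p-values measure the spread between these libraries, which may be in part technical.

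Aligned sequence came to between 5.407 and 5.876 gigabases per library. Epithelial genes were abundant in all libraries (Epcam between 735.1 and 1001.5 FPKM). The Paneth cell gene Lyz1, coding for lysozyme, stood at 1671.5, 2228.6 and 2280.7 FPKM in QC4, QC5 and QC6 and at 950.3, 1148.2 and 1081.9 in QC3, QC8 and QC10, and so was lower in each PCdel library (limma, unadjusted p = 0.00121, adjusted p = 0.979). QC6 received the lowest weight of the 6 libraries when limma weighted libraries by their quality (0.237, against 3.09 for QC5). Over all 14240 genes tested, 2 genes (0.0140%) passed a Benjamini-Hochberg adjusted p of 0.05.

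Mast cells store proteases in granules and release them when antigen cross-links IgE on the receptor FcεRI. In the mouse gut, mucosal mast cells lie in and under the epithelium and make the chymases Mcpt1 and Mcpt2. Mast cells of connective tissue make the chymase Mcpt4, the tryptase Tpsb2 and the protease coded by Cma1. The carboxypeptidase Cpa3 is a mast cell granule protease that is not assigned to either type here. Type 2 immunity joins these cells to the cytokine IL-13, made by type 2 innate lymphoid cells and helper T cells under the transcription factor GATA3, and to the alarmin IL-33, which acts through the receptor ST2 coded by Il1rl1. The GATA factors read a short DNA word, and mast cells use GATA2 and GATA1 as well as other factors to switch on their protease and receptor genes.

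The windows just before the gene starts are shown for 5 of the 6 genes that shared an order of libraries and for Il1rl1, because these genes hold the patterns described below. RefSeq's sequences (build GRCm38.p6) were matched by symbol for 8 of the 10 genes, giving 9 windows of 250 bases, since Il1rl1 has more than 1 start. The word searched was GATAA on either strand, printed in capitals as GATAA or as TTATC where it lies on the opposite strand. The windows are those of Mcpt1 at chr14:56017714-56017963 (plus strand), Mcpt4 at chr14:56062311-56062560 (minus strand), Cma1 at chr14:55944676-55944925 (minus strand), Cpa3 at chr3:20242182-20242431 (minus strand), Fcer1a at chr1:173227230-173227479 (minus strand), and the upstream and downstream starts of Il1rl1 at chr1:40429320-40429569 (plus strand) and chr1:40439379-40439628 (plus strand).
Mcpt1: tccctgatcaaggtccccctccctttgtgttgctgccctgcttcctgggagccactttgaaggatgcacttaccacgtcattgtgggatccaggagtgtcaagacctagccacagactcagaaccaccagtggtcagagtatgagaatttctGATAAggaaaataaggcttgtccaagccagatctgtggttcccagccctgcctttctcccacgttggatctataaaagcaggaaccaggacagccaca
Mcpt4: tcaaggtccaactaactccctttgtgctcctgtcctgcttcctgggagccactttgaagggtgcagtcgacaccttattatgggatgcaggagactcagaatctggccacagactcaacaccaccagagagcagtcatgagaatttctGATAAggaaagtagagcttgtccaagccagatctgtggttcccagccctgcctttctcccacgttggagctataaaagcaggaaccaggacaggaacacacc
Cma1: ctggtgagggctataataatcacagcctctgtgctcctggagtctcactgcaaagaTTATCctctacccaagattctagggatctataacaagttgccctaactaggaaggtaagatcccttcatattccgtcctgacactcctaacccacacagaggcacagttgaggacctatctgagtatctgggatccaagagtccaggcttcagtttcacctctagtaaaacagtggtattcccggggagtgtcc
Cpa3: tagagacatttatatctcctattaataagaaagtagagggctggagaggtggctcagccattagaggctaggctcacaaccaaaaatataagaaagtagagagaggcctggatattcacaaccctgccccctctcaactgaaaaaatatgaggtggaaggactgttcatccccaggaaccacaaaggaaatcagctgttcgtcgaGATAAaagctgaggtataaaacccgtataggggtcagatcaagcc
Fcer1a: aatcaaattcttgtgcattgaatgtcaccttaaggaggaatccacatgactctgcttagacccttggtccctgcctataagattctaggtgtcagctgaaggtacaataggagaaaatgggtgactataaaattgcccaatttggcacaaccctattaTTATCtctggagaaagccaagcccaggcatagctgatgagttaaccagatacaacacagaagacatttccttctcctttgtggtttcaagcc
Il1rl1, upstream start: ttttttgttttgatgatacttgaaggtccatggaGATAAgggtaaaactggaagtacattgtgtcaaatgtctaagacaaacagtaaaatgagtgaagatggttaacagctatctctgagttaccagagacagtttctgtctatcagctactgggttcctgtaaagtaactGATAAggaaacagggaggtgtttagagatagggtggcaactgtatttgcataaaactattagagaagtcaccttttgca
Il1rl1, downstream start: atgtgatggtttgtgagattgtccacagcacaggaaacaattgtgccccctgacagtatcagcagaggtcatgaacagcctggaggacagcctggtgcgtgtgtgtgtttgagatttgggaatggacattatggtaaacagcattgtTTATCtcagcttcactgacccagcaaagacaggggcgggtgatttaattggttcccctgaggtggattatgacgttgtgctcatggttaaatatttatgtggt

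The word was present in 8 of the 9 windows, against 22.6% of the 32851 windows of the same length in the RefSeq table. It lay 98 bases before the start in Mcpt1, 102 in Mcpt4, 194 in Cma1, 45 in Cpa3 and 92 in Fcer1a. Of the windows not printed, that of Il13 held it 80 bases before the start and that of Gata3 held none. The upstream window of Il1rl1 held it at 216 and 79 bases before the start, while 4.28% of all windows held 2 or more. Mcpt1 and Mcpt4 shared a run of 53 identical bases that opens 83 bases before the start of Mcpt1 and 87 before that of Mcpt4, just downstream of the word. The word itself lies in another stretch that is identical in both windows, so the matches of these genes are not separate either. A match describes the letters of a window and was not tied to binding of any factor in these adenomas.

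Mcpt1 and Mcpt2 carried nearly all of the mast cell protease signal. Together they made up between 89.8% and 94.2% of the summed FPKM of the 6 proteases in each library. Mcpt1 was the more abundant in every library, at between 1.49 and 1.91 times the FPKM of Mcpt2. Both lie in the chymase locus (chr14:55941453-56262260, GRCm38), Mcpt1 at chr14:56017964-56020391 and Mcpt2 at chr14:56042123-56044634.

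For Mcpt1, FPKM was 259.6, 591.1 and 497.5 in QC4, QC5 and QC6 of the WT group, and 605.4, 184.2 and 140.1 in the PCdel libraries QC3, QC8 and QC10. The PCdel group thus held both the highest and the lowest values, and the groups overlapped. The means were 449.4 ± 170.9 (SD, n = 3) in WT and 309.9 ± 256.8 (SD, n = 3) in PCdel adenomas, a log2 fold change of FPKM + 1 of -0.76 with a standard error of 0.581 (limma, adjusted p = 1.0, 95% interval -2.15 to 0.63). In bulk tissue, fewer mast cells and less of each transcript per mast cell cannot be told apart. Mcpt2 followed the same course, with 161.6, 330.8 and 278.5 FPKM in WT and 317.5, 103.2 and 94.0 in PCdel libraries in the same order. Its difference between genotypes, -0.75 on the log2 scale with a standard error of 0.505, was also within the spread of the libraries (adjusted p = 1.0).

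**Figure D1:**
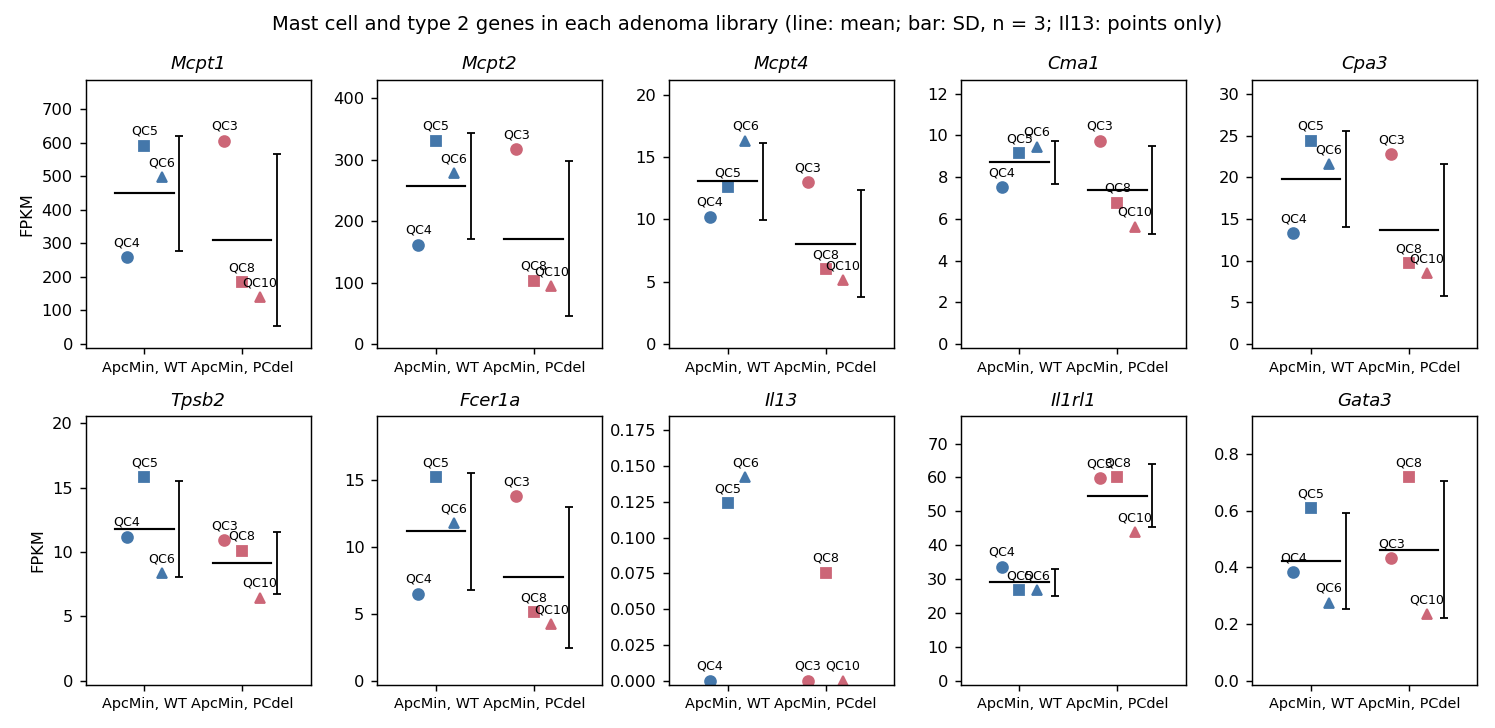
FPKM of each of the 10 genes (vertical axes from 0) in the 3 ApcMin, WT libraries (blue) and the 3 ApcMin, PCdel libraries (red), with each library named and the group mean and SD drawn except for Il13. QC3 stands with QC5 and QC6 near the top for Mcpt1, Mcpt2, Cpa3 and Fcer1a, and the groups are apart in Il1rl1 alone, with 26.7 to 33.7 FPKM in WT and 43.8 to 60.0 in PCdel adenomas.

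The proteases of connective tissue type and Cpa3 were present at lower levels. Mcpt4, the mouse chymase nearest in function to the human enzyme, had 10.2, 12.6 and 16.3 FPKM in QC4, QC5 and QC6 and 13.0, 6.01 and 5.13 in QC3, QC8 and QC10. QC8 and QC10 lay below all WT libraries and QC3 lay among them. Its log2 fold change was -0.71 with a standard error of 0.331 (limma, unadjusted p = 0.0719, adjusted p = 1.0).

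Cpa3, the carboxypeptidase of mast cell granules, had 13.3, 24.4 and 21.6 FPKM in WT and 22.8, 9.71 and 8.52 in PCdel libraries. This is the course of Mcpt1 at a level 16.4 to 26.6 times lower. Its log2 fold change was -0.59 with a standard error of 0.386 (limma, adjusted p = 1.0). Cma1 varied least of the proteases, from 5.62 FPKM in QC10 to 9.74 in QC3, with means of 8.71 ± 1.04 (SD, n = 3) in WT and 7.38 ± 2.12 (SD, n = 3) in PCdel adenomas. Its libraries were nevertheless ordered much as for Mcpt1, with QC3 highest and QC4, QC8 and QC10 lowest.

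Tpsb2, a granule tryptase, was the exception in the order of its libraries. It had 11.2, 15.8 and 8.38 FPKM in QC4, QC5 and QC6 and 10.9, 10.1 and 6.45 in QC3, QC8 and QC10. QC6, high for Mcpt1, Mcpt2, Mcpt4 and Cma1, lay second from the bottom here, and QC8 lay above it. The difference between genotypes was -0.32 on the log2 scale with a standard error of 0.264 (limma, adjusted p = 1.0).

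Fcer1a codes for the IgE-binding chain of FcεRI, found mainly on mast cells and basophils. Its FPKM was 6.51, 15.2 and 11.8 in QC4, QC5 and QC6 and 13.8, 5.12 and 4.24 in QC3, QC8 and QC10. The ratio of Cpa3 to Fcer1a stayed between 1.61 and 2.04 in all libraries although each gene ranged over 2.87-fold and 3.59-fold. The means, 11.2 ± 4.40 and 7.72 ± 5.29 FPKM (SD, n = 3 each), did not differ beyond the spread (limma, log2 fold change -0.57, standard error 0.45, adjusted p = 1.0).

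In WT adenomas the levels fell in the order Mcpt1, Mcpt2, Il1rl1, Cpa3, Mcpt4, Tpsb2, Fcer1a and Cma1. Mcpt4 (13.0 ± 3.11 FPKM), Tpsb2 (11.8 ± 3.76), Fcer1a (11.2 ± 4.40) and Cma1 (8.71 ± 1.04) lay within about a standard deviation of their neighbours in that order (SD, n = 3). Gata3 and Il13 followed far below.

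All 7 mast cell genes had lower fitted levels in PCdel than in WT adenomas. Of all genes tested, 5253 were lower and 8980 higher. The median log2 fold change of the 7 was -0.59, against 0.04 over all genes tested. None of the 7 passed the adjusted threshold or had an unadjusted p under 0.05 (limma). Over all genes, 0.681% had an unadjusted p under 0.05 with lower levels in PCdel adenomas, and 1.54% were lower in every PCdel library than in any WT library. None of the 7 was separated in that way. The libraries were ordered alike across these genes, but not by genotype. In 6 of the 7 (all but Tpsb2) the highest levels were those of QC3, QC5 and QC6, followed by QC4, QC8 and QC10 in that order. This order, looked for after the values were seen, was found in 0.435% of all genes tested. The 6 genes stand for 1 cell type, so they are not separate observations of it.

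The count for the 7 genes turned on QC3. Without QC3, 6 of the 7 were lower in both remaining PCdel libraries than in all WT libraries, against 3.97% of all genes. These 6 genes share an order of libraries and are not separate observations, and QC3 was singled out after the values were seen. The log2 fold changes were then -1.40 for Mcpt1, -1.31 for Mcpt2, -1.07 for Mcpt4, -0.998 for Cpa3 and -1.04 for Fcer1a. None of the 7 passed the adjusted threshold in that fit, where the lowest adjusted p was 0.801, for Mcpt4 (limma, 3 against 2 libraries). Leaving out QC6 gave 1 such gene of 7, against 12.3% of all genes, and leaving out QC4, QC5, QC8 or QC10 gave 0, against 2.87% to 4.70% of all genes. Without QC10 the log2 fold change of Mcpt1 shrank to -0.34, and without QC4 it grew to -1.11.

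**Figure D2:**
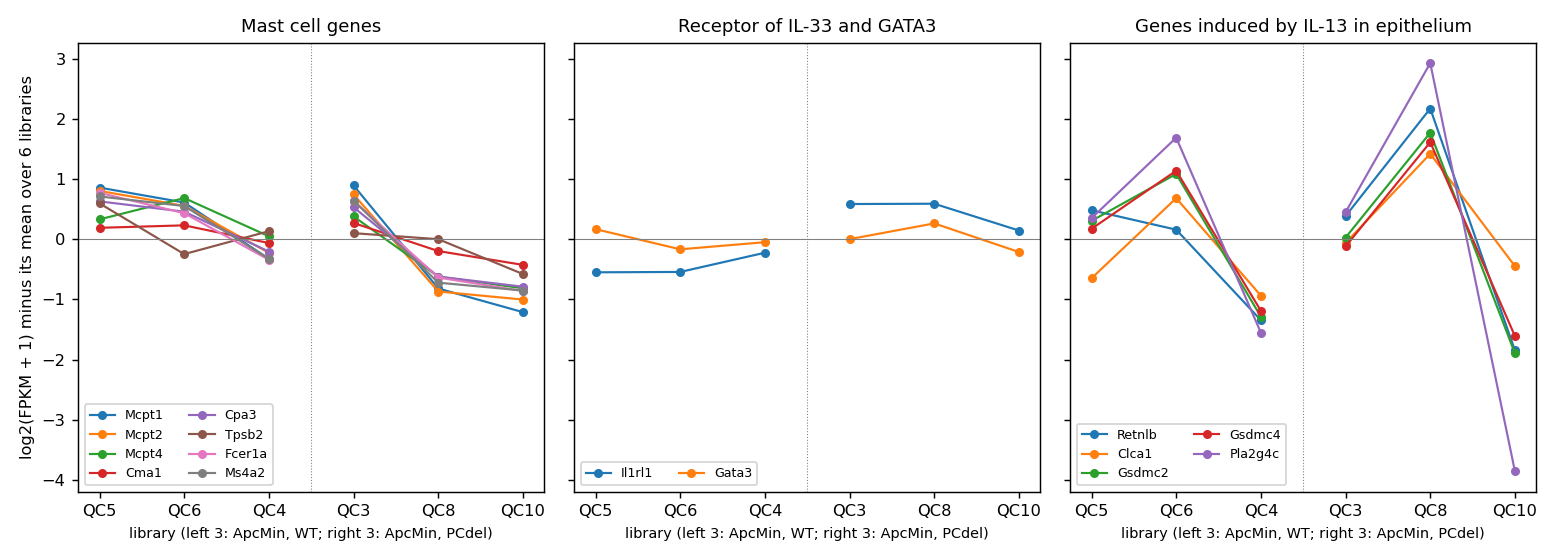
log2(FPKM + 1) of single genes minus the gene's own mean over the 6 libraries (vertical axis), in the WT libraries on the left and the PCdel libraries on the right of each panel. The mast cell genes drawn are above their means in QC5 and QC3 and lowest in QC10. Il1rl1 is below its mean in all WT and above it in all PCdel libraries, and the 5 genes induced by IL-13 that are drawn are highest in QC8.

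Other mast cell genes were read from a list of 31, of which 23 passed the level filter. By their fitted log values, 9 were higher and 14 lower in PCdel adenomas, with a median log2 fold change of -0.03, where 8980 of all genes tested were higher and 5253 lower, and none passed the adjusted threshold or was apart between the groups. Ms4a2, the beta chain of FcεRI, had 1.87, 4.88 and 4.27 FPKM in QC4, QC5 and QC6 and 4.60, 1.18 and 0.99 in QC3, QC8 and QC10. This is the order of Fcer1a, library by library. Kit, the receptor of stem cell factor on which mast cells depend, spanned a narrower range, from 4.71 FPKM in QC10 to 9.30 in QC3, and other cells of the gut such as interstitial cells of Cajal also express it. The abundant Cd63, Srgn and Fcer1g, which many cell types express, differed by at most 1.6-fold between any 2 libraries.

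Of the defining mast cell markers, Kit, Ms4a2, Fcer1a, Cpa3, Hdc and Gata2 were all detected in every library, Hdc at between 0.268 and 1.03 FPKM. Mrgprb1 and Mrgprb2, receptors of connective tissue mast cells, were each listed at 0 in 4 libraries and were at or below 0.0451 FPKM in QC3 and QC8. Maob, a monoamine oxidase that many cell types also make, was the single listed gene with an unadjusted p under 0.05. It had 24.7, 20.0 and 38.4 FPKM in WT and 13.6, 10.4 and 20.4 in PCdel libraries, groups that overlap (log2 fold change -0.86, standard error 0.301, limma unadjusted p = 0.0261, adjusted p = 1.0).

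The chymase locus holds 19 genes from Cma1 to the granzyme gene Gzmb. Beside the members, Cma2, Mcpt9, Mcpt8, Gzmb and the gene model Gm5801 passed the level filter, and these neighbours are named after their values were seen. Gm5801 varied little, from 3.42 FPKM in QC5 to 4.80 in QC10. Cma2, a chymase gene, had 5.94, 29.9 and 7.31 FPKM in QC4, QC5 and QC6 and 19.4, 7.39 and 2.67 in QC3, QC8 and QC10. It ranged over 11.2-fold, with QC5 and QC3 far above the rest. Mcpt9 was also highest in QC5 (5.18 FPKM) and QC3 (3.84) and lowest in QC10 (0.618). Gzmb, at the other end of the locus and made by cytotoxic lymphocytes, was instead highest in QC6 (22.8 FPKM) and lowest in QC4 (6.50). The granzyme genes Gzmf, Gzmg and Gzmn were listed at 0 in all libraries.

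Reads of these related genes can be hard to assign. Of the 31-base words in Mcpt1 transcripts, 6.71% also occur in transcripts of other genes, 3.46% in those of Mcpt2. The share was 12.2% in Mcpt4, most of it with Cma2, and 10.6% in Cma1, shared with the gene model Gm48934. Cpa3 and Fcer1a shared none, and they had the same order of high and low libraries as Mcpt2.

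Basophils also carry FcεRI, and their markers Mcpt8 and Prss34 were low. Mcpt8, a basophil protease despite its name, had between 0.389 and 1.60 FPKM, and Prss34 was listed at 0 in 4 of the 6 libraries. Of 5 basophil-list genes tested, 1 was higher and 4 lower in PCdel adenomas, where 8980 of all genes tested were higher and 5253 lower. The 1 higher was Il3ra, at between 1.71 FPKM (QC6) and 3.45 FPKM (QC4 and QC3). None of the 5 passed the threshold, and 2 of the 5 are Fcer1a and Ms4a2 themselves. The summed level of the list was 14.3 to 27.0 FPKM in WT and 10.5 to 25.3 in PCdel libraries. For eosinophils, Epx (eosinophil peroxidase) was listed at 0 in all libraries, but the 2 genes of the list that were tested were detected in every library. Prg2 had between 1.95 and 5.07 FPKM and a lower fitted level in PCdel adenomas. Siglecf had between 0.706 (QC4) and 5.86 FPKM (QC8) and a higher fitted level, and neither gene passed the threshold.

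Il1rl1, the gene for the IL-33 receptor ST2, took another course, and its groups did not overlap. Its FPKM was 33.7, 26.7 and 26.8 in QC4, QC5 and QC6 and 59.8, 60.0 and 43.8 in QC3, QC8 and QC10. All 3 PCdel libraries were above all 3 WT libraries. The means were 29.1 ± 4.01 and 54.6 ± 9.29 FPKM (SD, n = 3 each). The log2 fold change of FPKM + 1 was 0.88 with a standard error of 0.165 (95% interval 0.49 to 1.27).

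With an unadjusted p of 0.00126, Il1rl1 ranked 18 among the 14240 genes tested, but it did not pass after adjustment (limma, adjusted p = 0.979). Over all genes, 2.70% had an unadjusted p under 0.05 with higher levels in PCdel adenomas and 6.00% were higher in every PCdel than in any WT library, and Il1rl1 was the 1 tested member of 8 to do either. An exact two-sided permutation test over the 6 libraries gave p = 0.1, the smallest this design allows. The direction held with each library left out, at between 0.80 and 1.03 on the log2 scale.

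**Figure D3:**
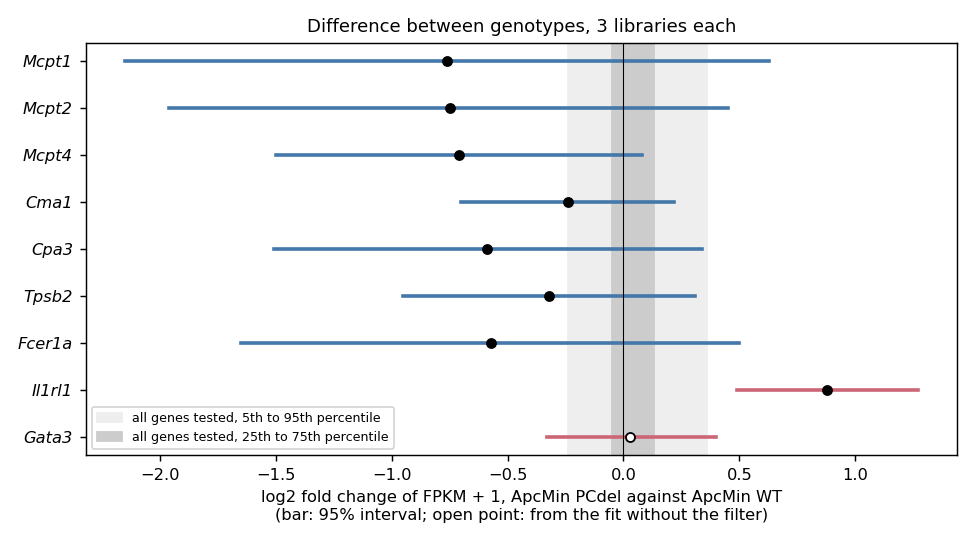
log2 fold change of FPKM + 1 in ApcMin, PCdel against ApcMin, WT adenomas (horizontal axis) with the 95% interval from limma for the 9 genes with a fitted value, over grey bands that span the middle 50% and 90% of all genes tested. The intervals of the mast cell genes and Gata3 include 0, and that of Il1rl1 runs from 0.49 to 1.27.

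Il1rl1 makes a membrane receptor and, from another start and end, a soluble form that captures IL-33. The tables give 1 value per gene, so the forms were not separated. Mean read coverage, which the tables also give, gave a smaller difference than FPKM. Per gigabase of aligned sequence it was 9.16, 7.62 and 7.41 in QC4, QC5 and QC6 and 16.3, 16.23 and 11.55 in QC3, QC8 and QC10. On that measure, added after the data were seen, the log2 fold change was 0.78 (limma, adjusted p = 0.873). The same 1 was added to both measures before taking logs, which shrinks a difference more at the lower values of coverage. The share of this in the smaller difference was not tested.

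The level of Il1rl1 did not follow the mast cell genes. QC8 had the highest Il1rl1 and the second lowest summed protease level (320.1 FPKM), and the ratio of Il1rl1 to Cpa3 ran from 1.09 in QC5 to 6.18 in QC8. Markers of other cells are given beside Il1rl1, and none of those in the next 3 lists passed the adjusted threshold (limma, adjusted p = 1.0 for each). Over all genes tested, 63.1% had a higher fitted level in PCdel adenomas and 6.00% were higher without overlap. Of 7 macrophage genes tested 7 were higher, 3 of them (Adgre1, C1qb and C1qc) without overlap, and the list summed to 101.8 to 118.7 FPKM in WT and 128.8 to 148.0 in PCdel libraries. Of 9 smooth muscle and stroma genes 9 were higher, with Pdgfra, a receptor of fibroblasts, at 9.14, 8.92 and 7.40 FPKM in WT and 14.7, 15.3 and 10.9 in PCdel libraries (log2 fold change 0.62, standard error 0.154, limma unadjusted p = 0.00571, adjusted p = 1.0). That list summed to 307.6 to 412.5 FPKM in WT and 345.5 to 516.0 in PCdel libraries, which overlap. The 6 genes of all leukocytes were also all higher, at 72.4 to 104.1 FPKM summed in WT and 96.1 to 114.9 in PCdel libraries, which overlap too. Relative to Ptprc, the common leukocyte antigen, Il1rl1 overlapped between the groups, with ratios of 7.47, 4.90 and 3.07 in QC4, QC5 and QC6 and 7.45, 6.83 and 6.17 in QC3, QC8 and QC10. The part of these cells in the level of Il1rl1 was not tested.

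Il1rl1 lies at chr1:40429570-40465415 (GRCm38) in a cluster of interleukin 1 receptor genes on chr1, from Il1r1 to Il18rap, whose members are given here after their values were seen. Il1r1, the receptor of IL-1, had 2.30, 3.29 and 2.81 FPKM in QC4, QC5 and QC6 and 4.62, 4.49 and 3.15 in QC3, QC8 and QC10. Il1rl2, the receptor of IL-36, was higher in every PCdel than in any WT library, as were 6.00% of all genes tested. Its level was near the filter, at 0.914 ± 0.0544 in WT and 1.26 ± 0.0823 FPKM in PCdel adenomas (SD, n = 3 each). The log2 fold change of Il1rl2 was 0.24 with a standard error of 0.104 (limma, unadjusted p = 0.0586). Il18r1 and Il18rap, the chains of the IL-18 receptor, were below a mean of 1 FPKM. None of these passed the adjusted threshold.

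The other parts of the IL-33 route showed no such separation. Il33 itself had 106.9, 66.1 and 45.2 FPKM in QC4, QC5 and QC6 and 78.8, 68.1 and 52.1 in QC3, QC8 and QC10, a log2 fold change of -0.06 with a standard error of 0.317. Its highest and lowest values were both in WT libraries. Il1rap, the co-receptor that signals with ST2, had 2.63 ± 0.303 and 2.65 ± 0.417 FPKM in WT and PCdel adenomas (SD, n = 3 each).

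Among 23 genes of type 2 alarmins, cytokines and their receptors, 14 passed the level filter, with 10 higher, 4 lower and none past the adjusted threshold. Il1rl1 was the only one of the 14 apart between the groups. Among all genes tested, 63.1% had a higher fitted level in PCdel adenomas and 6.00% were higher without overlap. The receptor chains Il4ra and Il13ra1, which take up IL-4 and IL-13, were abundant, at 29.9 ± 3.40 and 33.6 ± 3.61 FPKM for Il4ra and 58.4 ± 4.31 and 62.7 ± 11.2 for Il13ra1 in WT and PCdel adenomas (SD, n = 3 each). Stat6, the transcription factor they act through, ranged from 36.2 to 40.8 FPKM over all libraries.

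The cytokines themselves were at the edge of detection. Il13 was listed at 0 in QC4, QC3 and QC10 and at 0.124, 0.142 and 0.0755 FPKM in QC5, QC6 and QC8, so no fold change is given. The mean read coverage behind those values was 0.7, 0.807 and 0.423 per base. Il4 was listed at 0 in QC10 and lay between 0.327 and 0.682 FPKM in the other libraries, and Il5 and Il9 were each above 0 in 1 library. A difference in these cytokines between genotypes was not detectable at this depth.

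Gata3, which directs type 2 lymphoid cells and is also expressed in other lymphocytes, had 0.384, 0.609 and 0.276 FPKM in QC4, QC5 and QC6 and 0.434, 0.718 and 0.236 in QC3, QC8 and QC10. The range of the PCdel libraries enclosed that of the WT libraries. In the fit without a level filter its log2 fold change was 0.03 with a standard error of 0.146 (95% interval -0.33 to 0.40), and its sign turned without QC6 (-0.0418) and without QC8 (-0.0892), under quantile normalization and under array quality weights. Of 20 genes listed for type 2 innate lymphoid and helper T cells, 9 were tested, with 7 higher and 2 lower. Il1rl1 was the 1 of these 9 apart between groups, where 63.1% of all genes tested were higher and 6.00% were higher without overlap. Below the filter, Nmur1, the neuromedin U receptor of innate lymphoid cells, had 0.338 ± 0.0743 FPKM in WT and 0.616 ± 0.0613 in PCdel adenomas, and Icos, a costimulatory receptor, 0.386 ± 0.00601 and 0.607 ± 0.209 (SD, n = 3 each). Both were picked after their values were seen and were higher in every PCdel library, as were 4.54% of the 12968 genes that lay, like them, below the filter.

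Genes that IL-13 or IL-4 induce in gut epithelium and macrophages were read from a list of 19, of which 18 were found and 15 tested. Of these 10 were higher and 5 lower in PCdel adenomas, by the fitted log values, with a median log2 fold change of 0.10, and none passed the adjusted threshold. For 4 of the 5 (Ang4, Gsdmc2, Gsdmc4 and Pla2g4c) the mean FPKM was instead higher in PCdel adenomas, so their direction turns with the scale. Ccl17, a chemokine for type 2 T cells, was the 1 apart, at 0.406, 1.62 and 1.14 FPKM in QC4, QC5 and QC6 and 2.12, 2.81 and 1.72 in QC3, QC8 and QC10 (log2 fold change 0.68, standard error 0.251, limma unadjusted p = 0.0315, adjusted p = 1.0). The shares over all genes tested were 63.1% with a higher fitted level and 6.00% higher without overlap.

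Several epithelial genes of that list varied widely between libraries of 1 genotype. Retnlb, coding for the goblet cell protein RELMβ, had 13.2, 49.3 and 39.2 FPKM in QC4, QC5 and QC6 and 46.0, 161.2 and 9.01 in QC3, QC8 and QC10. The PCdel group held the highest and the lowest library. Clca1, a secreted goblet cell protein, had 136.4, 166.8 and 421.1 FPKM in WT and 251.1, 702.8 and 192.0 in PCdel libraries. Muc2, the main mucin of goblet cells, was instead highest in QC5 (600.3 FPKM) and lowest in QC10 (147.4), and Sprr2a3, a small proline-rich protein gene, was highest in QC3 (458.8 FPKM) and ranged over 1.57-fold only. The antimicrobial ribonuclease gene Ang4 ranged from 62.3 FPKM in QC10 to 1173.1 in QC8. Gsdmc2, Gsdmc4 and Pla2g4c, named after their values were seen, had the same highest library, QC8, and the same lowest, QC10, and Pla2g4c ranged over 144.9-fold, from 3.10 to 449.8 FPKM. QC6 was second highest and QC4 second lowest for Gsdmc2, Gsdmc4, Pla2g4c and Ang4. In the 6 mast cell genes that shared an order, QC8 was instead second lowest.

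**Figure D4:**
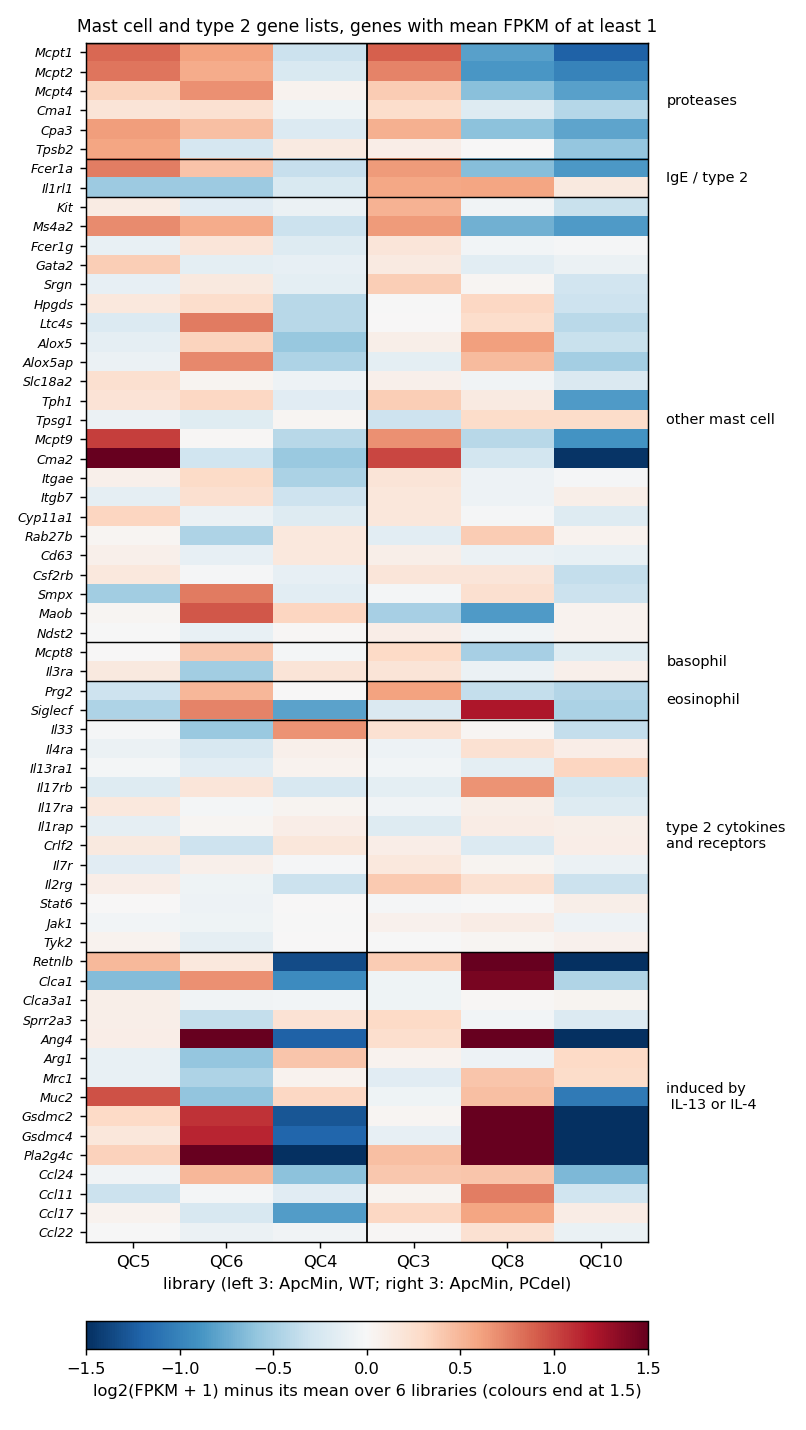
log2(FPKM + 1) minus the gene's mean over the 6 libraries (colour, red above and blue below the mean, colours end at 1.5) for genes of the mast cell and type 2 lists with a mean of at least 1 FPKM (rows), WT libraries in the left columns and PCdel libraries in the right. Mcpt1, Mcpt2, Cpa3, Fcer1a and Ms4a2 are red in QC5, QC6 and QC3, whereas Retnlb, Gsdmc2 and Gsdmc4 reach the red end of the scale in QC8, and Ang4 and Pla2g4c in both QC6 and QC8.

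Signals that bring mast cells into the gut and keep them there had higher fitted levels in PCdel adenomas in 9 of 9 genes tested, against 63.1% of all genes, with a median log2 fold change of 0.20 and none past the adjusted threshold. The chemokine genes Cxcl2 (0.846 ± 0.0602 and 2.74 ± 1.71 FPKM in WT and PCdel adenomas, log2 fold change 0.89) and Ccl2 (3.36 ± 1.09 and 6.51 ± 4.33 FPKM, log2 fold change 0.64), named after their values were seen, had the largest fitted differences of the 9, and their groups overlapped (SD, n = 3 each, limma, adjusted p = 1.0 for both). Kitl, the gene for stem cell factor, had 26.5 ± 3.57 and 28.5 ± 2.71 FPKM, and Tgfb1, which induces Mcpt1 in mucosal mast cells, 9.34 ± 1.64 and 9.95 ± 1.58 in WT and PCdel adenomas (SD, n = 3 each). Itgb6, a chain of the integrin that activates TGF-β in epithelium, had 10.6, 10.5 and 6.87 FPKM in QC4, QC5 and QC6 and 10.9, 11.3 and 11.2 in QC3, QC8 and QC10, and the groups were apart only by the gap from 10.6 to 10.9. Il3 was listed at 0 in all libraries.

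Other leukocyte lists were set beside the mast cell genes. T cell genes had higher fitted levels in 8 of 8, against 63.1% of all genes tested, and none was apart or past the adjusted threshold. Their sum was highest in QC6 (36.3 FPKM) and lowest in QC4 (15.3). B and plasma cell genes summed to 1180.5 to 2081.0 FPKM in WT and 1250.6 to 1607.9 in PCdel libraries, neutrophil genes to 4.24 to 17.0 and 6.22 to 20.1, and regulatory T cell genes to 4.49 to 5.17 and 4.61 to 6.04. Epithelial genes summed to 5651.9 to 7516.9 and 6224.5 to 7939.7 FPKM. Of these lists none had its highest sums in QC5, QC3 and QC6, the order of the proteases. The Paneth cell list had lower fitted levels in 8 of 8 genes, although the mean FPKM of Ang4 was 547.4 in WT and 553.6 in PCdel adenomas. Lyz1, Defa21 and Defa22 were lower in every PCdel library than in any WT library, as were 1.54% of all genes tested. None of the 8 passed the adjusted threshold (limma, adjusted p = 0.309 for Defa21 and Defa22 and 0.979 for Lyz1). The list summed to 3575.8 to 5486.1 FPKM in WT and 2274.7 to 3685.8 in PCdel libraries.

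Genes elsewhere in the genome were ranked by how closely they followed the proteases, with a score per library that averages log2(FPKM + 1) of the 6 proteases, each minus its own mean. The score was -0.11, 0.57 and 0.38 in QC4, QC5 and QC6 and 0.49, -0.52 and -0.80 in QC3, QC8 and QC10. Of 14232 genes, Ms4a2 came first, with a Pearson correlation of 0.986 over the 6 libraries, which share their tissue preparation and differ little in depth. Among the genes next in rank were Ddhd1, Ubac1, Snora78, Hook1, Rmnd5a, Glrx5, Il17rd and A930005H10Rik (0.9525 to 0.9821). Most of these moved little, Ddhd1 between 8.69 and 10.1 FPKM, whereas Ms4a2 ranged over 4.93-fold.

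The genes most like Il1rl1 were Coasy, Boc, Clec7a, Tmem87b and Fgr, with correlations of 0.9858 to 0.9943 over the 6 libraries. Clec7a, the beta-glucan receptor Dectin-1 of myeloid cells, had 4.76, 4.11 and 4.34 FPKM in QC4, QC5 and QC6 and 5.96, 5.93 and 5.15 in QC3, QC8 and QC10. Those most like Gata3 were Ccdc163, Uggt1, Prelp, Slc26a9 and Htt, with correlations of 0.9855 to 0.9976. With 6 points and 14232 genes, high correlations describe an order of libraries and are given with no test.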

How the data were processed

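RNA was sequenced from small intestinal adenomas of 3 ApcMin, PCdel and 3 ApcMin, WT libraries (TruSeq RNA kit, HiSeq2500). Alignment and statistics were done in CLC Genomics Workbench 7 by the study's methods, which also mention normalizing in MatLab. The settings of that step, the annotation and the program that made the deposited values are not given in the sources used here. The authors deposited FPKM for each gene, scaled for length and library size, TPM, scaled to a fixed sum per library, and mean read coverage, a signal that is not scaled. No column belonged to another sample. Gene positions match GENCODE's annotation of GRCm38 at both ends for 5 of the 10 genes and within 1004 bases for the others.

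Groups were compared with limma 3.58.1 in R 4.3.3 (lmFit, eBayes with trend) on log2(FPKM + 1), which understates the change of low genes, for the 14240 genes with a mean of at least 1 FPKM, and p-values were adjusted by Benjamini-Hochberg and read at 0.05. The fit was tested on simulated data. Each member was also compared by permuting the libraries exactly, two-sided. Depth came from coverage divided by FPKM, and without read counts no counting intervals or floors were given. Shared sequence was measured as 31-base words in GENCODE transcripts, with Python 3.11.15. Each library was left out in turn, and the fit was repeated with array quality weights, TPM, quantile normalization, median centring, no trend in eBayes, 0.1 as pseudocount, 5 FPKM as the minimum, no minimum and, chosen after seeing the data, coverage per gigabase.

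The 10 genes and all lists were chosen with earlier results of these data known. Besides the 10 genes, the text names from each list genes past the threshold or, otherwise, up to 5 with the highest mean FPKM or without overlap between groups, the cell type markers, and the genes most correlated with the proteases (10, of which 1 is not reported here), Il1rl1 and Gata3 (5 each). Neighbouring genes and others so marked were named after their values were seen, as were Hdc, Kit, Maob, Mrgprb1, Mrgprb2, Il1rap and the genes below the filter. List counts are descriptions, with no set test.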

Additional observations from a re-analysis of the deposited data

How the results depend on the processing

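Under the 15 alternatives, the 8 tested members kept their direction and their side of the adjusted threshold in all 120 refits. The log2 fold change of Mcpt1 ran from -1.40 (without QC3) to -0.34 (without QC10) and that of Il1rl1 from 0.78 to 1.03, with adjusted p between 0.198 and 1.0. Gata3 reversed to -0.00641 under quantile normalization and -0.0115 under array quality weights, and ran from -0.0892 (without QC8) to 0.148 with a library left out, -0.0418 without QC6. The cause was not tested. Genes past the adjusted threshold numbered 2, against 1 with median centring, 1 without the filter, and 1 to 5 with a library left out (5 without QC4). TPM shifted the median log2 fold change of all genes to 0.10. Il13, listed at 0 in 3 libraries, was not refitted, and the minimum of 5 FPKM leaves out Gata3. No paired analysis was possible because the labels name no litter, cage or mouse that would link libraries of the groups. Depth limits Il13 and Gata3, whose mean coverage was at most 1.67 reads per base.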
